A study of Mus musculus with 21 samples.

Results

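The samples analysed here were 6 right (injured) brain hemispheres of male C57BL6J mice, out of 21 in the series: the 3 titled as PBS-treated brains 7 days after traumatic brain injury (PBS TBI day 7) and the 3 titled as PBS-treated brains 3 days after it (PBS TBI day 3). All 6 mice received an open-head controlled cortical impact (CCI), in which an impactor strikes the exposed dura over the right parieto-temporal cortex, and were then given PBS, the vehicle, through the tail vein 1 h after injury. The question was which genes of a neuroinflammation panel changed between day 3 and day 7 post injury (pi) when injury ran its course without complement inhibition. Mice of the day 3 group were 12 weeks old and mice of the day 7 group 13 weeks, so 1 week of age and 4 days of time after injury cannot be told apart. Other groups of 3 mice are used as reference only: sham mice of 12, 13 and 16 weeks, which had anesthetics and a scalp incision without impact and carry the label vehicle, PBS TBI on day 28 at 16 weeks, which had received 3 further doses of PBS, and mice with the same injury given 16 mg/kg CR2-Crry on day 3 (12 weeks) and day 7 (13 weeks). CR2-Crry is a fusion protein that carries the mouse complement inhibitor Crry to sites where C3 activation products are bound. Each sample carries its own number within its group, and the mice were perfused with cold PBS before the hemisphere was taken. A hemisphere holds the contusion, the tissue around it and distant tissue together, and a change in it is an average over all of them.

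After a contusion, neutrophils and monocytes enter the tissue within days, drawn by chemokines such as Ccl2, while resident microglia divide, take up debris and change their program. Microglia and macrophages that carry lipid debris turn on a set of genes around Trem2, Apoe, Cst7 and Itgax, known from neurodegeneration as the disease-associated program. C1q, the first component of the classical complement pathway, is made in the brain mainly by microglia, and interferon-induced genes are turned on by interferons or by nucleic acids in the cytosol. Astrocytes react with a shared set of genes and with sets described after endotoxin (A1) or after ischemia (A2), and the enzyme Hmox1 breaks down haem from extravasated blood.

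Expression was read with the nCounter Mouse Neuroinflammation panel, which counts individual mRNA molecules by color-coded probes. Values are normalized counts, scaled by the authors to housekeeping genes. Of 757 probes, 740 passed the filter (a value over 20 in at least 3 of 21 samples) and were tested, 53 of them without a gene symbol in the probe table. The 6 samples held between 854923 and 995726 counts in the unit of their smallest step, so a value of 100 stands for fewer than 100 molecules (steps of 1.0213 to 1.10552 per molecule). Log2 values of samples of the same day correlated at 0.9936 to 0.9942 on day 3 and 0.9914 to 0.9928 on day 7 (Pearson, across probes), against 0.9764 to 0.9825 between days, and no library stood apart. Sample medians averaged 382 ± 8.0 in the day 3 group (SD, n = 3) and 413 ± 14.8 in the day 7 group, a shift whose cause was not tested. Centring each sample on its median took 0.13 off each log2 change, and the calls of genes named below that were lost this way are given beside them. The tissue label was borne out by neuronal (5 of 5 on the panel), astrocyte, oligodendrocyte and microglial markers, whose lowest single value was 658, whereas the B cell marker Ms4a1 stayed between 3.09 and 13.3. In whole tissue, fewer cells of a type and less RNA per cell cannot be told apart.

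Between day 3 and day 7, 186 of 740 probes differed (limma, Benjamini-Hochberg adjusted p under 0.05; 25.1% of those tested). Higher on day 7 were 137 (18.5%) and lower were 49 (6.62%), and more than 2-fold 19 rose and 10 fell. The values of the 3 mice of one day lay entirely on one side of the other day's for 321 probes (43.4%). Among probes with a symbol the increase was led by Ccl5, Cst7, Cxcl10, Lag3 and Oas1g and the decrease by Hmox1, Rrm2, Timp1, Tgm1 and Top2a. The median probe changed by 0.09 on the log2 scale. With samples centred on their medians 172 probes were called, 66 higher (8.92%) and 106 lower (14.3%), which turned the share of higher calls from 73.7% to 38.4%. All 49 lower calls and 66 of the 137 higher calls kept their direction and significance when centred. Outside the lists, the cell surface receptors Slamf8 (2.36-fold, adjusted p = 0.00266) and Ly9 (2.00-fold, adjusted p = 0.000982) of the SLAM family of immune cells were among the strongest increases. PBS TBI day 7 replicate 2 counted most for the number of calls, which was 123 without it (81 higher and 42 lower).

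**Figure D1:**
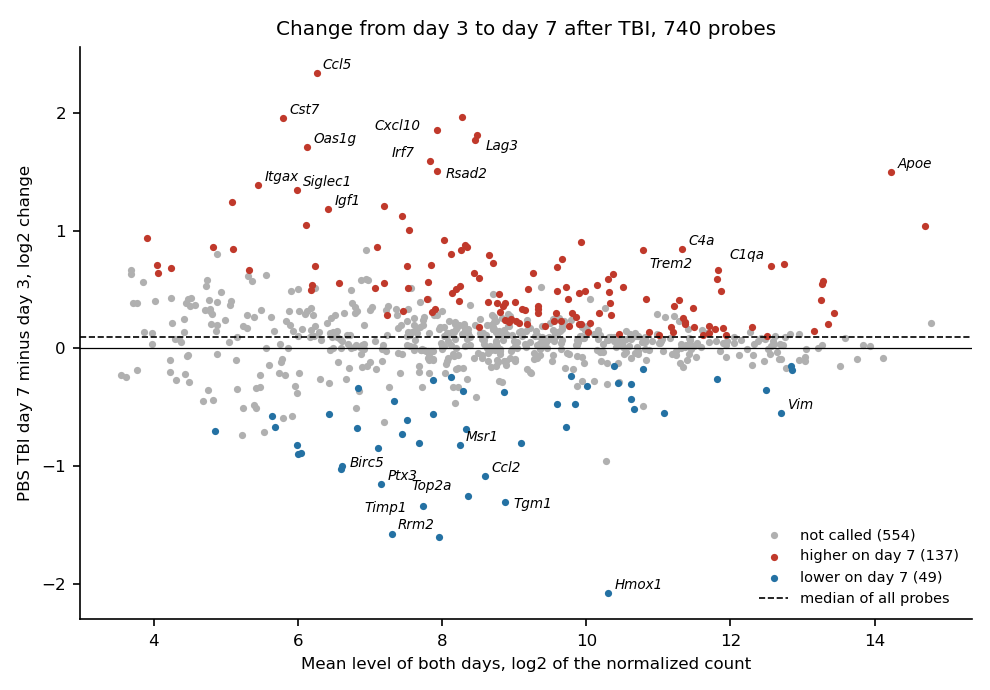
Log2 change from day 3 to day 7 in PBS TBI (vertical axis) against the mean level of both days as log2 of the normalized count (horizontal axis) for 740 probes. Red points are the 137 probes called higher on day 7, blue points the 49 called lower, and the dashed line is the median change of 0.09; Ccl5 has the largest increase and Hmox1 the largest decrease.

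Interferon-induced genes had the highest median change of the 28 gene lists. Of 19 tested members of the list, 12 rose (63.2%, beside 18.5% of all probes), none fell and 7 did not pass. The median log2 change was 0.79, beside 0.09 over all probes. Cxcl10, a chemokine for activated T cells, measured 118, 161 and 100.5 on day 3 and 688, 346 and 383 on day 7, against 23.6, 23.6 and 21.8 in sham. Every day 7 mouse lay more than 2-fold above the highest day 3 mouse, and day 7 replicate 1 was the highest of the group. The change was 3.63-fold (log2 change 1.86, SE 0.22, adjusted p = 9.57e-06). Irf7, the transcription factor that amplifies the type I interferon response, measured 141, 127 and 118 on day 3 and 551, 322 and 328 on day 7 (3.01-fold, log2 change 1.59, SE 0.19, adjusted p = 1.14e-05). Rsad2, which encodes the antiviral protein viperin, measured 139, 152 and 138 on day 3 and 544, 359 and 340.1 on day 7 (2.83-fold, log2 change 1.503, SE 0.19, adjusted p = 1.31e-05). In both, the 3 mice of day 3 were close to each other and replicate 1 of day 7 stood above its group. Oas1g, of the oligoadenylate synthetase family that senses double-stranded RNA, measured 35.0, 54.0 and 27.2 on day 3 and 172, 92.9 and 113 on day 7 (3.28-fold, log2 change 1.71, SE 0.24, adjusted p = 3.94e-05). Its day 3 values overlapped with those of sham (41.7, 37.6 and 49.4), whereas all day 7 values lay above both. The nucleic acid sensors Zbp1 (2.32-fold, adjusted p = 0.0019), Ddx58 (RIG-I, 1.81-fold, adjusted p = 1.31e-05) and Ifih1 (MDA5, 1.73-fold, adjusted p = 0.000223) rose as well, as did the GTPase Gbp2 (1.84-fold), the schlafen family member Slfn8 (2.18-fold), the macrophage lectin Siglec1 (2.54-fold) and Irf8 (1.56-fold). Not all members moved together. The lysosomal reductase Ifi30 (log2 change −0.32, adjusted p = 0.11) and the membrane protein Ifitm2 (−0.29, adjusted p = 0.136) did not pass and were called lower with centred samples, while Ifitm3 changed by 0.27 (adjusted p = 0.134). All 12 members that rose were also called with centred samples.

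The interferon-stimulated response element (ISRE) is the site through which interferon-activated factors bind their target promoters. It was searched as GAAA, any 2 bases and GAAA again, on both strands, in the 300 bases around each gene start of the RefSeq annotation (GRCm38.p6). A promoter was given for 16 of the 19 members, and 9 of these 16 (56.2%) held a match, against 41 of 555 tested panel genes (7.39%) and 1079 of 27025 genes of the genome (3.99%). Among the 10 members that rose and had a promoter, 7 held a match. The 250 bases before the gene start are shown for 3 genes that rose and for Ifitm2, which holds a match and did not pass, with the match in capitals. A match in these letters is a description of the sequence, not a measured binding site.
Cxcl10 (chr5:92348890-92349139, minus strand): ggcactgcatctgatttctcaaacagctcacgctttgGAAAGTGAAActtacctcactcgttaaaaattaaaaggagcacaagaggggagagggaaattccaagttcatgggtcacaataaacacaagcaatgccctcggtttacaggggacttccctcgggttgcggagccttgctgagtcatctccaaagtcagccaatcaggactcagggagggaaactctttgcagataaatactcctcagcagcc
Rsad2 (chr12:26456453-26456702, minus strand): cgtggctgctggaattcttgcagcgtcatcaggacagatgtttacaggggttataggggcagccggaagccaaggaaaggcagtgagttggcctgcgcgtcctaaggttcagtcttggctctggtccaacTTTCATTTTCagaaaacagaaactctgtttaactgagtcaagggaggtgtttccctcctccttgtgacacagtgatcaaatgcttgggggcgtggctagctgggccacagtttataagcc
Oas1g (chr5:120887614-120887863, minus strand): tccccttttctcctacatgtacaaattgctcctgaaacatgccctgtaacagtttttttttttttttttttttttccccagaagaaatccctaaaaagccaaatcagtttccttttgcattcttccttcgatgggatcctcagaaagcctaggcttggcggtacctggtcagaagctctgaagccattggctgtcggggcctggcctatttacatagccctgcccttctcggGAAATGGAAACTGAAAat
Ifitm2 (chr7:140955962-140956211, minus strand): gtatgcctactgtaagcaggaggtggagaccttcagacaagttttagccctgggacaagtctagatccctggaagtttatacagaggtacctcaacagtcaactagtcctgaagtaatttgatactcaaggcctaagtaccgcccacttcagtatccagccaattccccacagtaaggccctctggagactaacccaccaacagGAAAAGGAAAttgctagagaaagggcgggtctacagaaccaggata
The match began 213 bases before the gene start in Cxcl10, 120 in Rsad2 (on the opposite strand) and 46 in Ifitm2. Oas1g held 2 overlapping matches that began 18 and 12 bases before its gene start.

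Most of the complement genes analysed here rose, among them all chains of C1q. Of 9 tested members 6 rose (66.7%, beside 18.5% of all probes), none fell and 3 did not pass, with a median log2 change of 0.57 (0.44 with centred samples, which called the same number). C6, of the membrane attack complex, did not pass the filter on low values, and further components of the pathway were not analysed here. C1qa, one of the 3 chains of C1q, measured 4432, 4709 and 5023 on day 3 and 8703, 7148 and 7266 on day 7, where sham had 936, 860.1 and 1259.9. All 3 day 7 mice lay above all day 3 mice (1.63-fold, log2 change 0.70, SE 0.14, adjusted p = 0.00113). C1qb and C1qc, the other two chains, rose 1.46-fold and 1.49-fold (adjusted p = 0.00779 and 0.00241). C4a, a gene of complement component C4, measured 1868, 1890.0 and 1984 on day 3 and 3215, 3907 and 3212 on day 7 (1.79-fold, log2 change 0.84, SE 0.14, adjusted p = 0.000159). Serping1, the inhibitor of the C1 proteases, rose from between 294 and 356 on day 3 to between 459.6 and 668 on day 7 (1.65-fold, adjusted p = 0.00199). Among the receptors, Itgax, a subunit of complement receptor 4, had the largest change (28.8, 29.1 and 23.02 on day 3 and 71.4, 59.7 and 80.7 on day 7; 2.61-fold, log2 change 1.38, SE 0.18, adjusted p = 1.98e-05). Its counts were low. The days did not overlap, but Itgax was named by a rule that required this. The lack of overlap is therefore no check on the low counts. Itgam, which pairs in complement receptor 3 (0.19, adjusted p = 0.335), and the anaphylatoxin receptors C3ar1 (0.42, adjusted p = 0.063) and C5ar1 (−0.18, adjusted p = 0.494) did not pass.

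The disease-associated program of microglia and macrophages held several of the largest increases. Of 13 members 9 rose (69.2%, beside 18.5% of all probes), 1 fell (7.69%, beside 6.62%) and 3 did not pass. The median log2 change was 0.49, or 0.36 with centred samples and 8 higher calls. Apoe, the main lipid carrier of the brain, measured 11118, 11575 and 11551 on day 3 and 32518, 35436 and 28829 on day 7. It was close to even within each day and rose 2.82-fold (log2 change 1.49, SE 0.12, adjusted p = 5.45e-08). Cst7, an inhibitor of lysosomal cysteine proteases, measured 25.7, 34.5 and 24.1 on day 3 and 139.6, 91.8 and 97.0 on day 7 (3.87-fold, log2 change 1.95, SE 0.25, adjusted p = 1.31e-05). Lag3, a receptor that binds MHC class II, measured 193, 189 and 188 on day 3 and 727, 647 and 583 on day 7 (3.42-fold, log2 change 1.77, SE 0.13, adjusted p = 5.21e-08). The 3 day 3 mice were nearly identical for Lag3, and the lowest day 7 mouse stood 3-fold above them. Igf1, a growth factor, rose 2.28-fold (log2 change 1.19, SE 0.14, adjusted p = 1.22e-05), the lipid-sensing receptor Trem2 1.79-fold (log2 change 0.84, SE 0.11, adjusted p = 1.31e-05), its adaptor Tyrobp 1.41-fold and the phagocytic receptor kinase Axl 1.40-fold. Csf1, the growth factor of microglia, rose 1.31-fold, a call lost without day 3 replicate 1 (adjusted p = 0.0904) or day 7 replicate 1 (adjusted p = 0.104) and with centred samples (0.0635). Fabp5, a fatty acid binding protein, was the member that fell, from between 6267 and 6894 to between 4833 and 5525 (log2 change −0.35, SE 0.08, adjusted p = 0.00356). Lilrb4a, Ch25h and Gpr84 changed by −0.06, 0.03 and −0.02 and did not pass.

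**Figure D2:**
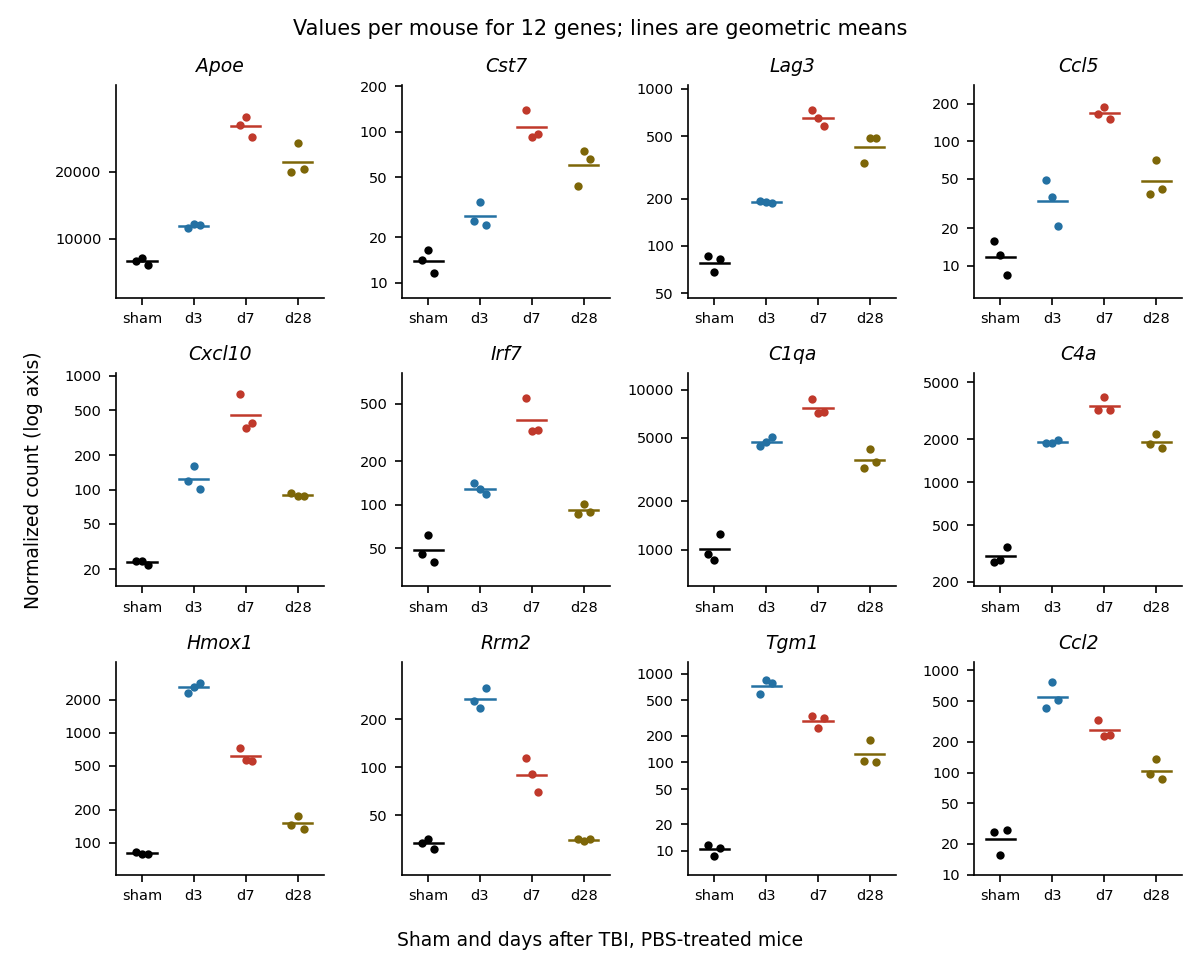
Normalized count per mouse (log axis) of 12 genes in sham and in PBS TBI on days 3, 7 and 28, with geometric means as lines. The upper 8 genes rose from day 3 to day 7 and the lower 4 fell. In all 12 the 3 mice of day 3 did not overlap with the 3 of day 7. All but C1qa and C4a were named by a rule that required this, and it held for 43.4% of all 740 probes.

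Phagocytic and lysosomal genes followed with smaller changes. Of 26 members 16 rose (61.5%, beside 18.5% of all probes), 1 fell (3.85%, beside 6.62%) and 9 did not pass. The median log2 change was 0.35, or 0.22 with 10 higher and 3 lower calls with centred samples. The count of higher members was 10 without day 3 replicate 3, without day 7 replicate 1 or without day 7 replicate 2. Ctss, a lysosomal protease that cleaves the invariant chain, measured 5490.4, 5599 and 4905 on day 3 and 9068, 9156 and 8103 on day 7 (1.65-fold, log2 change 0.72, SE 0.13, adjusted p = 0.000591). Mpeg1, a pore-forming protein of macrophages, rose 1.59-fold (log2 change 0.67, SE 0.17, adjusted p = 0.00629) and progranulin (Grn) by 0.59 on the log2 scale (adjusted p = 0.000696). The Fc receptors Fcgr1 (0.48), Fcgr2b (0.63) and Fcgr3 (0.51, all on the log2 scale) rose together, while Fcer1g, the signalling chain of Fcgr1 and Fcgr3, did not pass (0.34, adjusted p = 0.0698). These 3 calls were weak: Fcgr1 lost its call without day 3 replicate 3 (adjusted p = 0.0744) or day 7 replicate 1 (0.0945), Fcgr2b without any mouse but day 7 replicate 3 (0.0629 to 0.153) and Fcgr3 without any mouse but day 7 replicate 1 (0.0644 to 0.111). With centred samples Fcgr2b (0.051) and Fcgr3 (0.0666) were not called. The scavenger receptor Msr1 went the other way: it measured 362, 422 and 418 on day 3 and 265, 187 and 235 on day 7, so that all 3 day 7 mice lay below all day 3 mice, and fell by 0.82 on the log2 scale (SE 0.21, adjusted p = 0.00711). Cd36 (−0.33, adjusted p = 0.271) and Cd14 (−0.15, adjusted p = 0.775), further scavenger and pattern receptors, did not pass. Of 8 genes of antigen presentation 5 rose (62.5%, beside 18.5% of all probes), 1 fell (12.5%, beside 6.62%) and 2 did not pass. The count was 3 higher without day 3 replicate 3 or without day 7 replicate 2, and 4 higher and 2 lower with centred samples. Cd74, the invariant chain of MHC class II, measured 842, 763 and 518 on day 3 and 1289.7, 1751 and 968 on day 7 (1.87-fold, log2 change 0.91, SE 0.24, adjusted p = 0.00935). The mice of each day differed widely and the 2 days were still separate, but the call was lost without day 3 replicate 3 (log2 change 0.70, adjusted p = 0.0571) and without day 7 replicate 2 (0.69, adjusted p = 0.0673). The costimulator Cd86 rose 1.47-fold (adjusted p = 0.0132; not called without day 3 replicate 3, adjusted p = 0.0662, or day 7 replicate 1, adjusted p = 0.0792), and the immunoproteasome subunit Psmb8 rose 1.56-fold (adjusted p = 0.00294). The class I gene H2-T23 fell by 0.15 on the log2 scale (adjusted p = 0.0358), a call that held only without day 3 replicate 2 when a mouse was left out (adjusted p 0.0586 to 0.107 in the others).

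Genes of resting microglia did not move as a block. Of 14 members 6 rose (42.9%, beside 18.5% of all probes), 2 fell (14.3%, beside 6.62%) and 6 did not pass. The count of lower members was 1 without day 3 replicate 1 or 2 or day 7 replicate 2 or 3. The median log2 change was 0.19, or 0.07 with 4 higher and 2 lower calls with centred samples. The fractalkine receptor Cx3cr1 measured 2183, 2116 and 2193 on day 3 and 3439, 2709.6 and 2552 on day 7 (log2 change 0.41, SE 0.10, adjusted p = 0.00522), with day 7 replicate 1 well above the other mice. The receptor kinase Mertk rose 1.45-fold (log2 change 0.54, SE 0.12, adjusted p = 0.00288), the growth factor receptor Csf1r 1.27-fold (adjusted p = 0.00718) and Plxdc2 1.34-fold (adjusted p = 1.28e-05). In contrast, the purinergic receptor P2ry12 fell by 0.32 on the log2 scale (adjusted p = 0.044) and the fructose transporter Slc2a5 by 0.68 (adjusted p = 0.00106). The P2ry12 call was lost without day 3 replicate 1 or 2 or day 7 replicate 2 or 3 (adjusted p 0.066 to 0.206), and Tmem119 changed by 0.10 (adjusted p = 0.418). Slc2a5 measured 164, 133 and 131 on day 3 and 81.7, 77.4 and 109 on day 7, where the day 7 mice overlapped the range of sham (72.3, 74.3 and 85.4). Summed over P2ry12, Tmem119, Cx3cr1 and Csf1r, the microglial markers ran from 6549 to 7191 on day 3 and from 7389 to 8869 on day 7, against 2435 to 2581 in sham, and 2 of the 4 rose. The part of microglial number in the changes of complement, disease-associated and lysosomal genes was not tested.

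Chemokines moved in both directions. The monocyte chemoattractant Ccl2 measured 429, 773 and 508 on day 3 and 329, 229.9 and 233 on day 7 and fell by 1.08 on the log2 scale (SE 0.30, adjusted p = 0.0124). Day 3 replicate 2 was far above its group, and without it the change was −0.84 (adjusted p = 0.0763); without day 7 replicate 2 it was −0.996 (adjusted p = 0.0539). Ccl7, a second ligand of the same receptor, fell from between 81.3 and 106 to between 43.9 and 53.8 (log2 change −0.89, SE 0.18, adjusted p = 0.00126). By contrast Ccl3, a chemokine made by activated microglia and macrophages, rose 1.75-fold (adjusted p = 0.00323), and the related chemokine Ccl4 changed by 0.51 without passing (adjusted p = 0.175). Ccr2, the receptor of Ccl2 on inflammatory monocytes, and the macrophage scavenger receptor Cd163 did not pass (0.11 and 0.13, adjusted p = 0.822 and 0.623). In the whole list of monocyte and macrophage recruitment 2 of 12 members rose (16.7%, beside 18.5% of all probes) and 3 fell (25%, beside 6.62%). The second riser was Siglecf, a sialic-acid-binding lectin (2.06-fold, adjusted p = 0.00035).

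Ccl5, which attracts T cells and monocytes, rose more than any other gene with a symbol. It measured 15.7, 12.2 and 8.37 in sham, 48.4, 35.6 and 20.9 on day 3 and 164, 188 and 151 on day 7, and 37.5, 70.3 and 41.2 on day 28. The lowest day 7 mouse was 3-fold above the highest day 3 mouse (5.06-fold, log2 change 2.34, SE 0.34, adjusted p = 4.64e-05). Among genes of T and NK cells 5 of 16 rose (31.2%, beside 18.5% of all probes) and none fell (median log2 change 0.41). The count was 2 without day 3 replicate 1, day 3 replicate 2, day 7 replicate 2 or day 7 replicate 3, and 3 without day 3 replicate 3. The T cell receptor chain Cd3d measured 12.3, 9.71 and 10.5 on day 3 and 18.6, 23.2 and 20.4 on day 7, and was called at an adjusted p of 0.0358 that no fit without one of the 6 mice reached (lowest 0.0513). With centred samples 2 members were called, Ccl5 and the activation marker Cd69 (23.7, 19.4 and 19.9 on day 3 and 45.5, 32.1 and 37.8 on day 7; log2 change 0.86, SE 0.21, adjusted p = 0.0054). Summed over Cd3d, Cd3e, Cd3g, Cd6 and Cd8a, T cell markers ran from 74.5 to 103 on day 3, from 99.3 to 116 on day 7 and from 95.4 to 135 in sham, and the NK cell markers Ncr1, Klrd1 and Gzma together stayed at 45.0 to 64.8 and 44.9 to 60.8. The part of T cell number in the rise of Ccl5 was not tested. Neutrophil genes were few: the receptor Csf3r measured 237, 285 and 238 on day 3 and 375, 399 and 322 on day 7 (adjusted p = 0.0415, not called without day 3 replicate 1 or 3 or day 7 replicate 1 or 2, adjusted p 0.0961 to 0.134, nor with centred samples, 0.0735), and Lcn2, an iron-binding acute-phase protein, measured 1303, 3208 and 1588 on day 3 and 825, 2754 and 1059 on day 7 with overlapping days (log2 change −0.49, SE 1.00, adjusted p = 0.748).

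Many genes of DNA replication and mitosis fell. Of 24 members 13 fell, none rose and 11 did not pass (median log2 change −0.44; with centred samples −0.56 and 15 lower calls), where 6.62% of all probes fell. Rrm2, the ribonucleotide reductase subunit that limits nucleotide supply in S phase, measured 261, 235 and 315 on day 3 and 115, 90.7 and 70.5 on day 7, against 33.8, 35.8 and 31.0 in sham and 35.5, 34.7 and 35.5 on day 28. It fell 2.98-fold (log2 change −1.57, SE 0.18, adjusted p = 8.34e-06), with all day 7 mice between sham and day 3. Top2a, the topoisomerase of dividing cells, measured 511, 469.5 and 527 on day 3 and 264, 214 and 163 on day 7 (2.39-fold lower, log2 change −1.26, SE 0.21, adjusted p = 0.000232). Birc5 (survivin), a mitotic regulator, measured 124, 131 and 161 on day 3 and 72.4, 63.0 and 68.4 on day 7 (2.03-fold lower, adjusted p = 7.13e-05). Each of the 3 showed the same order, sham lowest, day 3 highest and day 7 between. The replicative helicase subunits Mcm5 (−0.80) and Mcm6 (−0.56), the condensin subunit Ncaph (−0.85), the cyclin kinase subunit Cks1b (−0.73), the sliding clamp Pcna (−0.43) and the polymerase subunit Pole (−0.56, all log2 changes) fell as well. The kinesin Kif2c was called at −0.90 (adjusted p = 0.0476) and lost the call in 5 of the 6 fits without a mouse, the exception being day 7 replicate 1 (adjusted p 0.0554 to 0.167 in the others), and Pole lost it without day 3 replicate 1 or 2 or day 7 replicate 2 or 3 (0.0632 to 0.187). Other regulators of the cycle did not pass: the phosphatase Cdc25a (−0.02), the kinase Cdc7 (−0.05), E2f1 (−0.15) and the checkpoint kinase Chek1 (0.00) had adjusted p-values of 0.887, 0.83, 0.467 and 1.

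E2F factors drive many S phase genes through a short element, searched here as TTTGGCGC or TTTCCCGC on both strands in the same 300 bases. Of 21 members with a promoter 5 (23.8%) held a match, against 27 of 555 tested panel genes (4.86%) and 486 of 27025 genes (1.8%). Of the 11 that fell and had a promoter only Mcm5 and Mcm6 held one, and Cdc25a, Ezh2 and Hells held one without passing the test. The 250 bases before the start of the pair that fell are shown, with the match in capitals.
Mcm5 (chr8:75109259-75109508, plus strand): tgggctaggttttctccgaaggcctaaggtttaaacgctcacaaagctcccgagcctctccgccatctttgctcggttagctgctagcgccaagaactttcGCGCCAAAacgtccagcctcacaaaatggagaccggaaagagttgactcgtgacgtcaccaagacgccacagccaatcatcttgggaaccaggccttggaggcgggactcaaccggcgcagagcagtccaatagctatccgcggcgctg
Mcm6 (chr1:128359706-128359955, minus strand): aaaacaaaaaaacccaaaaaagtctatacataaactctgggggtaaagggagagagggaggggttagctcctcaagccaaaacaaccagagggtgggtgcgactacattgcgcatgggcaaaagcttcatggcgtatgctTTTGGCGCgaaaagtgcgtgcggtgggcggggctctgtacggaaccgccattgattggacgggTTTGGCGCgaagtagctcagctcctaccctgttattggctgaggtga
The match began 149 bases before the gene start in Mcm5, on the opposite strand, and Mcm6 held 2, which began 110 and 47 bases before it.

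Hmox1 fell more than any other gene. Haem oxygenase 1 measured 2304, 2615 and 2862 on day 3 and 725, 567 and 555 on day 7, with 81.8, 79.5 and 79.5 in sham and 146, 177 and 133 on day 28. Every day 7 mouse was at least 3-fold below every day 3 mouse and still above every day 28 and sham mouse (4.23-fold lower, log2 change −2.08, SE 0.17, adjusted p = 5.45e-08). Other genes of the stress and haem list moved little: of 16 members 3 fell (18.8%, beside 6.62% of all probes) and none rose (median −0.06). Srxn1, which repairs oxidized peroxiredoxins, fell by 0.30 (SE 0.05, adjusted p = 0.000139) and thioredoxin reductase Txnrd1 by 0.18 on the log2 scale (adjusted p = 0.0154; not called without day 3 replicate 2, adjusted p = 0.0562, or day 7 replicate 1, adjusted p = 0.053). The quinone reductase Nqo1 (−0.02) and the glutamate cysteine ligase subunit Gclc (0.10), targets of Nrf2 like Hmox1, and the stress factor Atf3 (−0.42) did not pass (adjusted p = 0.888, 0.145 and 0.227).

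**Figure D3:**
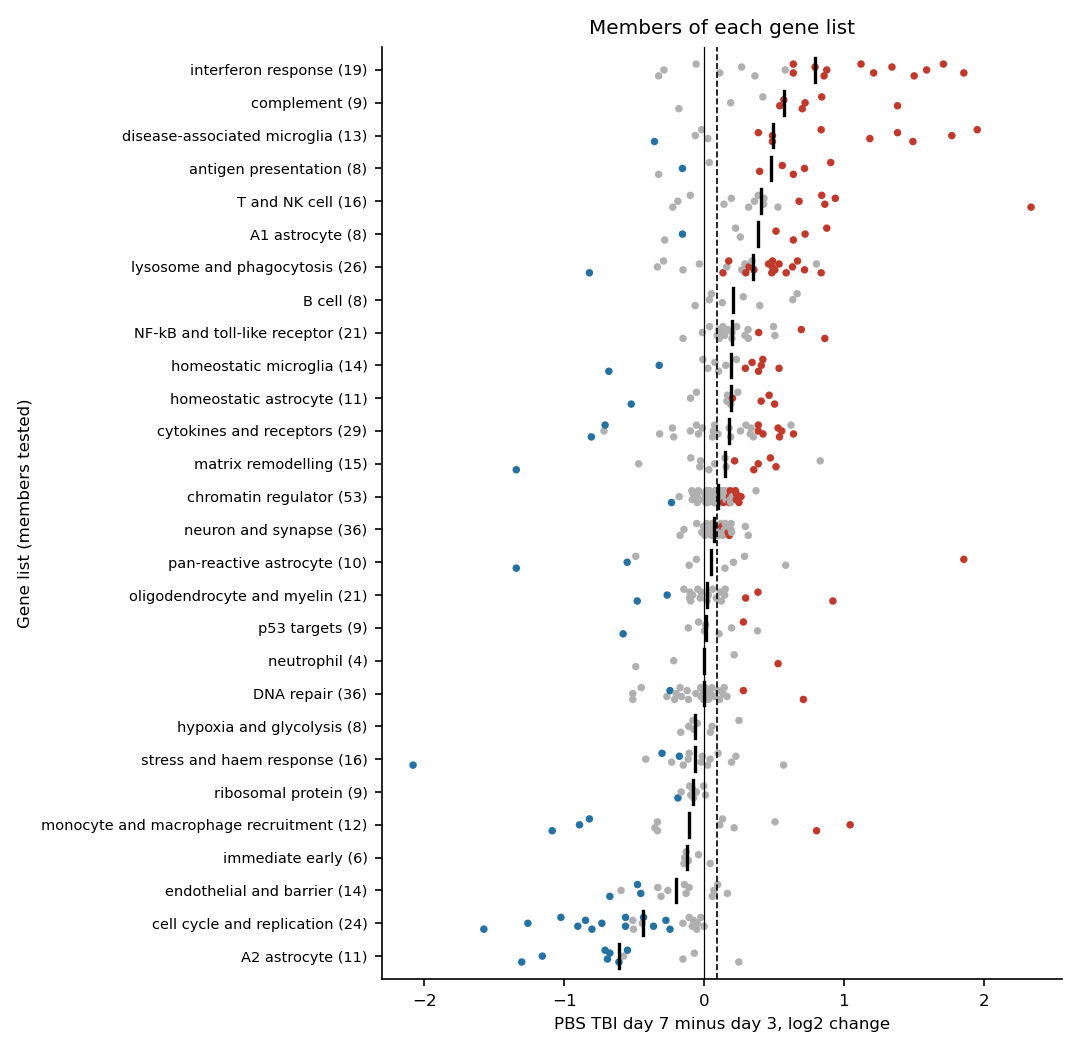
Log2 change from day 3 to day 7 of every tested member of 28 gene lists (points; red called higher, blue called lower, grey not called), ordered by the list median (black bar). The dashed line is the median of all 740 probes at 0.09; interferon response (median 0.79) and complement (0.57) lie at one end and A2 astrocyte (−0.61) and cell cycle genes (−0.44) at the other.

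Astrocyte genes moved in opposite directions according to the set they belong to. Of 11 A2 genes 7 fell (63.6%, beside 6.62% of all probes) and none rose (median −0.61). Of 8 A1 genes 4 rose (50%, beside 18.5% of all probes) and 1, H2-T23, fell (median 0.39). Tgm1, a transglutaminase, measured 588, 844 and 781 on day 3 and 336, 243 and 316 on day 7 (2.47-fold lower, log2 change −1.30, SE 0.27, adjusted p = 0.00166), where sham brains had 11.8, 8.74 and 10.9. All day 7 mice were below all day 3 mice and far above sham. Ptx3, a soluble pattern receptor, measured 177, 326 and 153 on day 3 and 87.9, 89.5 and 101 on day 7 (2.23-fold lower, log2 change −1.16, SE 0.29, adjusted p = 0.00746); day 3 replicate 2 was the highest, and without it the change was −0.83 and not called (adjusted p = 0.0562). The membrane proteins Emp1 (−0.69) and Tm4sf1 (−0.67), the annexin partner S100a10 (−0.55), the prostaglandin synthase Ptgs2 (−0.61) and the cytokine Clcf1 (−0.71, all log2 changes) also fell, Clcf1 without a call when day 3 replicate 3 was left out (adjusted p = 0.0513). Of the A1 genes Gbp2 (0.88), Serping1 (0.72), Psmb8 (0.64) and the matrix protein Fbln5 (0.52) rose. Gbp2, Psmb8 and Serping1 also stand in the interferon or complement lists. The Fbln5 call was lost without day 3 replicate 1 (0.31, adjusted p = 0.15) and without day 7 replicate 1 (0.50, adjusted p = 0.0546), and with centred samples (adjusted p = 0.0813), when 3 A1 genes were called higher and 2 lower. Genes shared by both states did not move as a set, with 1 higher and 2 lower of 10. Timp1, an inhibitor of metalloproteinases, measured 327, 384 and 289 on day 3 and 109.6, 193 and 105 on day 7 (2.53-fold lower, log2 change −1.34, SE 0.29, adjusted p = 0.00271), and the intermediate filament Vim measured 7619, 7430.5 and 9208 on day 3 and 5920.0, 5458 and 5150.4 on day 7 (log2 change −0.55, SE 0.14, adjusted p = 0.00607). Both sets of day 7 mice were below all day 3 mice, while Serpina3n (0.29, adjusted p = 0.326) and Steap4 (0.58, adjusted p = 0.311) did not pass.

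Genes of resting astrocytes changed in part. Of 11 members 4 rose (36.4%, beside 18.5% of all probes) and 1 fell (9.09%, beside 6.62%). The median was 0.19, or 0.06 with 3 higher and 1 lower with centred samples. The glutamate transporter Slc1a3 measured 8434, 8608 and 8311 on day 3 and 11889.7, 11398 and 10422 on day 7 (1.33-fold, log2 change 0.41, SE 0.05, adjusted p = 1.14e-05). The folate enzyme Aldh1l1, used as a marker of all astrocytes, measured 1933, 1868 and 2017 on day 3 and 1461, 1289 and 1312 on day 7 (1.43-fold lower, log2 change −0.52, SE 0.07, adjusted p = 5.12e-05). These 2 markers of one cell type moved in opposite directions, in each case without overlap between the days. The gap junction protein Gja1 (0.20), the ectonucleotidase Entpd2 (0.47) and the phosphodiesterase Gdpd2 (0.51, all log2 changes) rose, Gja1 with a call that held only without day 7 replicate 3 when a mouse was left out (adjusted p 0.0602 to 0.237 in the others) and was lost with centred samples (0.51), and Kcnj10, Sox9 and S100b did not pass.

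Neuronal genes changed little. Of 36 members 3 rose (a count of 1 without day 3 replicate 1, day 3 replicate 2 or day 7 replicate 2) and none fell, against 18.5% and 6.62% of all probes, and the list median was 0.07, or −0.06 with centred samples, when none was called higher. The microtubule protein Mapt measured 2191, 2174 and 2129 on day 3 and 2434, 2529 and 2398 on day 7 (log2 change 0.18, SE 0.04, adjusted p = 0.0052), where sham had 2628, 2683 and 2709.8. The day 7 mice lay between sham and day 3. Nlgn2, an adhesion protein of inhibitory synapses (0.17, adjusted p = 0.0295), and the endocytic adaptor Pacsin1 (0.13, adjusted p = 0.0397) were called on the authors' scaling, but Nlgn2 only without day 7 replicate 3 and Pacsin1 only without day 3 replicate 3 or day 7 replicate 1 when a mouse was left out (adjusted p up to 0.112 and 0.144 in the others). The nuclear marker Rbfox3 (NeuN, 0.01, adjusted p = 0.885), synaptophysin (Syp, 0.01, adjusted p = 0.942) and the neurotrophin Bdnf (−0.02, adjusted p = 0.934) did not pass, and 5 neuronal markers summed to 26323 to 28796 on day 3 and 26093 to 27547 on day 7. None of 6 activity-regulated genes passed, and 1, the AP-1 subunit Jun, was called lower with centred samples (adjusted p = 0.00757). Arc, which is induced by synaptic activity, spread on day 7 (443, 388 and 534 on day 3 and 246, 366 and 808 on day 7) so that replicates 1 and 3 differed more than 3-fold, and its change of −0.11 (adjusted p = 0.802) turned to 0.27 without day 7 replicate 1 and was called at −0.59 without day 7 replicate 3 (adjusted p = 0.0413).

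Oligodendrocyte genes were mixed, with 3 of 21 higher (14.3%, beside 18.5% of all probes) and 2 lower (9.52%, beside 6.62%). The median was 0.02, or −0.105 with 1 higher and 2 lower with centred samples. Enpp6, a phosphodiesterase of newly forming oligodendrocytes, measured 211, 193 and 165 on day 3 and 364, 412 and 305 on day 7, above both sham (148, 128 and 116) and day 28 (129, 159 and 168). It rose 1.90-fold without overlap (log2 change 0.92, SE 0.14, adjusted p = 6.19e-05). Myrf, the transcription factor of myelination, rose 1.23-fold (adjusted p = 0.00209; not called with centred samples). The mature myelin proteins Opalin (−0.48, adjusted p = 0.0476) and Mal (−0.26, adjusted p = 0.0193) fell, with overlapping days for Opalin and with both calls lost without day 3 replicate 1 (adjusted p = 0.221 and 0.0504) or day 3 replicate 2 (0.113 and 0.0975). Opalin was also not called without day 7 replicate 2 (0.193) or 3 (0.0682) and Mal without day 7 replicate 1 (0.0792). Mag (0.15), Mog (−0.02) and Cnp (0.09) did not pass.

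Endothelial genes leaned lower. Of 14 members 3 fell (21.4%, beside 6.62% of all probes) and none rose. The median was −0.20, or −0.33 with 8 lower calls with centred samples, and 6 were lower without day 7 replicate 2. Tm4sf1, which is enriched in vessels and also stands in the A2 list, measured 1133, 1087 and 982 on day 3 and 659, 727 and 622 on day 7 (log2 change −0.67, SE 0.09, adjusted p = 1.31e-05). The adhesion molecule Pecam1 measured 978, 921 and 829 on day 3 and 653, 780.5 and 545 on day 7 (log2 change −0.47, SE 0.13, adjusted p = 0.00946; −0.35 and adjusted p = 0.0577 without day 7 replicate 3), and Icam2 changed by −0.45 (adjusted p = 0.0104; 0.053 without day 3 replicate 2). In these 3 genes all day 7 mice lay below all day 3 mice. The tight junction protein Cldn5 (−0.31, adjusted p = 0.107) and the receptor Tie1 (−0.11, adjusted p = 0.598) did not pass. The summed endothelial markers Cldn5, Pecam1, Tie1 and Emcn ran from 2758 to 3099 on day 3, from 1914 to 2787 on day 7 and from 1675 to 1725 in sham, and the part of vessel content in these values was not tested.

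Cytokines, their receptors and matrix genes held single changes rather than a common one. Of 29 cytokine and receptor genes 7 rose (24.1%, beside 18.5% of all probes) and 2 fell (6.9%, beside 6.62%). None of the 7 was called with centred samples. Of the 7 none was called without day 3 replicate 1, 1 without day 7 replicate 2, 2 without day 3 replicate 3 or without day 7 replicate 1, 3 without day 3 replicate 2 and 4 without day 7 replicate 3. Tnfrsf12a, the receptor of the cytokine TWEAK, measured 680.0, 707 and 773 on day 3 and 419.9, 371 and 447 on day 7 (1.75-fold lower, log2 change −0.81, SE 0.11, adjusted p = 1.91e-05), with the 2 days well apart. The acute cytokines Il1b (−0.71, adjusted p = 0.186), Il1a (0.62, adjusted p = 0.0641) and Tnf (0.34, adjusted p = 0.341) did not pass at counts below 100. Of 21 genes of toll-like receptor and NF-kB signalling 3 rose, a share of 14.3% beside 18.5% of all probes, and none fell. The lipoprotein receptor Tlr2 measured 96.7, 112 and 93.1 on day 3 and 208, 197 and 149 on day 7 (1.82-fold, log2 change 0.86, SE 0.20, adjusted p = 0.00472), the RNA sensor Tlr7 rose 1.62-fold (adjusted p = 0.0033) and the kinase Irak2 1.31-fold (adjusted p = 0.00106), all 3 also with centred samples. Tlr4 (0.20, adjusted p = 0.215) and the inflammasome sensor Nlrp3 (0.51, adjusted p = 0.0954) did not pass. In the matrix list 5 of 15 rose (33.3%, beside 18.5% of all probes) and 1, Timp1, fell. The count was 3 higher without day 3 replicate 1 or 2 or day 7 replicate 1 or 2, and 2 higher and 2 lower with centred samples. The receptor Tgfbr1 rose 1.39-fold (log2 change 0.47, SE 0.08, adjusted p = 0.000223) and its ligand Tgfb1 1.31-fold (adjusted p = 0.0475), a call that held only without day 7 replicate 3 when a mouse was left out (adjusted p 0.0555 to 0.163 in the others) and was lost with centred samples (0.105).

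**Figure D4:**
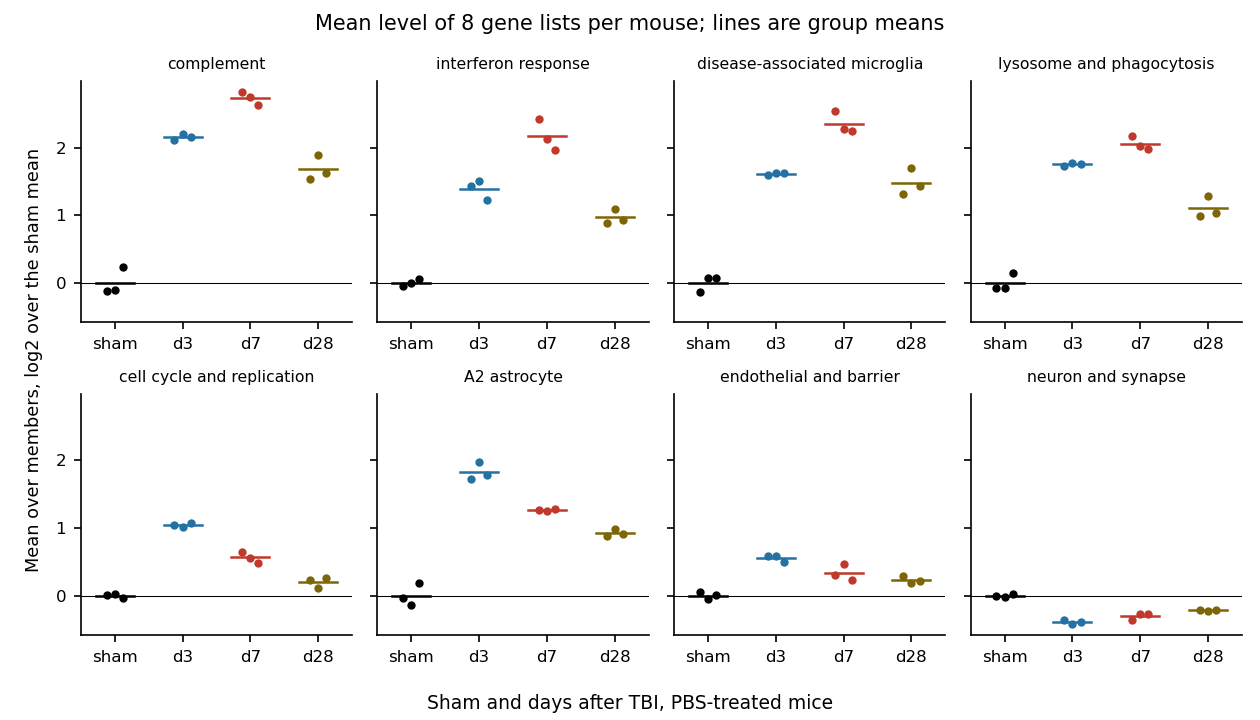
Mean log2 level of the members of 8 gene lists, relative to the sham mean, for each mouse in sham and in PBS TBI on days 3, 7 and 28; lines are group means. Complement, interferon, disease-associated and lysosomal genes were highest on day 7, and cell cycle, A2 astrocyte and endothelial genes were highest on day 3.

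Seen over the whole time course, the groups of genes differed in when they were highest. Complement genes averaged 2.16 ± 0.046 in log2 over sham (SD, n = 3) at day 3. They reached 2.74 ± 0.094 by day 7 and were at 1.69 ± 0.186 by day 28, and disease-associated genes went through 1.62 ± 0.021, 2.36 ± 0.159 and 1.48 ± 0.201. Interferon genes went from 1.39 ± 0.144 to 2.17 ± 0.229 and back to 0.97 ± 0.108. Cell cycle genes declined from 1.05 ± 0.033 through 0.56 ± 0.082 to 0.20 ± 0.082, and A2 astrocyte genes from 1.83 ± 0.130 through 1.27 ± 0.016 to 0.93 ± 0.052. In each of these 5 lists the 3 mice of day 7 were all above or all below the 3 mice of day 3. This did not set the 5 lists apart. It also held for other lists, among them chromatin regulators and B cell genes (0.01 to 0.386 on day 3 and 0.389 to 0.563 on day 7), although no B cell gene was called. Further lists, such as neuronal genes, overlapped between the days. The genes and lists were chosen with the day 3 and day 7 values known, and the levels are a description. Day 28 and sham values did not enter the contrast of the 2 days, but they shared its filter and its estimate of the spread. Of the 137 genes higher on day 7, 101 (73.7%) had all 3 day 28 mice above all 3 sham mice, and of the 49 lower ones 29 (59.2%) did, beside 50% of all 740 probes. Itgax measured 61.9, 92.5 and 94.0 on day 28 and had thus not come down by then, whereas Cxcl10 (93.3, 88.7 and 87.3) and Irf7 (86.2, 101 and 88.2) were below their day 3 means.

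CR2-Crry-treated mice of the same days, which share no animal with the PBS groups, gave a second view of the interval. In them 51 probes were higher on day 7 (6.89%) and 90 lower (12.2%), and their sample medians went from 398 ± 22.7 to 367 ± 3.24 (SD, n = 3), opposite to the PBS groups. Of the 137 genes that rose in PBS TBI, 40 (29.2%) were also called higher in CR2-Crry TBI, none was called lower and 116 had a log2 change above 0; these 40 are 78.4% of all genes called higher there. Of the 49 that fell, 40 (81.6%) were also called lower, which is 44.4% of the genes called lower there. The contrasts of both treatments used the same filter and the same estimate of each probe's spread, so these shared calls are not independent. Across the 740 probes the changes of the 2 treatments correlated at 0.807 (Pearson) and 0.592 (Spearman), a description over genes that are not independent. Ccl5 (1.96), Lag3 (1.82), Itgax (1.59) and Cst7 (1.52) rose, and Hmox1 (−2.79), Rrm2 (−2.17), Tgm1 (−1.99) and Top2a (−1.89, all log2 changes) fell under CR2-Crry as well.

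The difference between the 2 treatments in the change from day 3 to day 7 was tested directly and passed for 0 of 740 probes (limma; smallest adjusted p 0.135). At an unadjusted p under 0.05 there were 124, of which 119 had a lower change in CR2-Crry TBI and 5 a higher one, and limma voom, a test on the recovered counts, also called 0 (141 at an unadjusted p under 0.05). With only the 12 samples of these 4 groups in the fit 21 passed, all lower under CR2-Crry, and with sample weights 2. With adjustment only over the genes at an unadjusted p under 0.05, all 124 passed. That outcome was fixed in advance, because adjusting only such p-values leaves every one of them under 0.05. That narrower adjustment is the one the study's methods describe between injured groups. The median difference was −0.14 on the log2 scale. The standard error of a single probe's difference had a median of 0.15, which is not the error of that median difference. Sample medians of the log2 values averaged 8.63 on day 3 and 8.76 on day 7 under PBS, and 8.68 and 8.59 under CR2-Crry. The smallest p belonged to Lgmn, a lysosomal protease, which measured 6289, 6365 and 6731 on day 3 and 6624, 6217 and 6111 on day 7 under PBS and 6961, 6540.3 and 7431 on day 3 and 5239.5, 5286 and 5329 on day 7 under CR2-Crry (difference −0.37, SE 0.08, unadjusted p = 0.000233, adjusted p = 0.135). The PBS days overlapped and the CR2-Crry days did not. Cotl1, an actin-binding protein, followed with a difference of −0.35 (adjusted p = 0.135). In the other direction were the mitophagy receptor Bnip3 (0.19), Mal (0.30) and Ptgs2 (0.51), with adjusted p-values of 0.175, 0.23 and 0.248. Complement genes had 6 higher and 0 lower in PBS TBI, and 1 higher and 1 lower in CR2-Crry TBI. C4a rose by 0.84 under PBS and changed by 0.26 under CR2-Crry (difference −0.59, SE 0.19, unadjusted p = 0.00634, adjusted p = 0.187), and Apoe by 1.49 and 1.00 (difference −0.50, adjusted p = 0.191). With adjustment over all 740 probes, no change described above is called particular to vehicle-treated mice.

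**Figure D5:**
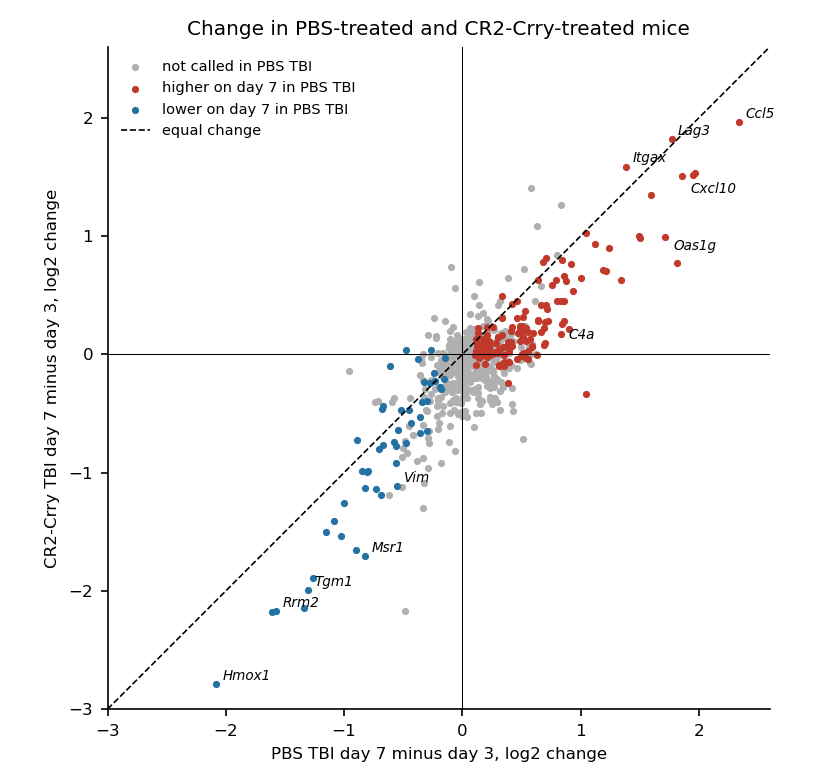
Log2 change from day 3 to day 7 in CR2-Crry TBI (vertical axis) against that in PBS TBI (horizontal axis) for 740 probes, colored by the call in PBS TBI. Most red and most blue points lie below the dashed line of equal change; the median difference was −0.14, and the difference passed the test for 0 probes.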

How the data were processed

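RNA of the injured hemisphere was hybridised to the nCounter Mouse Neuroinflammation panel. The deposited values are a signal per probe that the authors made in nSolver by background thresholding and scaling to the geometric mean of housekeeping genes, so they are normalized counts rather than raw ones. Nearly all values were whole multiples of a step per sample (at least 99.87% within a tolerance of 0.0075), which gives each sample's depth. Probe symbols came from the platform annotation (703 of 757 with 1 symbol).

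Log2 values, with no pseudocount, of 740 probes with a value over 20 in at least 3 of 21 samples were fitted in limma 3.58.1 (R 4.3.3) with 1 mean per group over all 21 samples and a mean-variance trend. Benjamini-Hochberg adjustment ran over all 740 probes with a threshold of 0.05. The CR2-Crry difference was the interaction in the same fit. The p-values measure the spread between mice. The fit was tested on data simulated for day 7 against day 3 over the 740 probes, where it recovered 79.1% of changes of 0.5 on the log2 scale, 97% of changes of 1 and 100% of changes of 2. The simulation changed 200 probes in either direction and added independent, normally distributed noise. The noise had the fit's own spread per probe, equal in all groups, and no shift was common to all probes. These data met the assumptions of the fit by design and could not test them. Promoters were 250 bases before to 50 after each RefSeq gene start. Tables and figures were made in Python 3.11.15 with pandas 2.3.3 and matplotlib 3.10.9.

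The rule for named genes took called genes without overlap between days, the 15 highest and 15 lowest by log2 change, and up to 4 members per list; other members were named after their values were seen. The comparison, its members and the gene lists were chosen with earlier results of these data known. Alternatives were the trend, the samples in the fit, sample weights, a t-test per gene, the extent of the adjustment, a pseudocount, the filter, median centring, a replicate block, limma voom and leaving out each mouse.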

Additional observations from a re-analysis of the deposited data

How the results depend on the processing

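The number of genes that differed between day 3 and day 7 (186: 137 higher, 49 lower) was 1 (1 higher, 0 lower) with the methods' t-test after Benjamini-Hochberg adjustment, 66 higher and 106 lower with samples centred on their medians, and 77 for the lower genes with adjustment only over genes at an unadjusted p under 0.05. Leaving out 1 mouse gave 123 to 173 genes, 81 to 133 higher and 34 to 48 lower. Under the other alternatives run, these counts stayed within 1.5 times. The difference between CR2-Crry and PBS, 0 genes, was 21 (all lower) with only the compared groups in the fit, 2 (both lower) with sample weights and 124 (5 higher, 119 lower) with the narrower adjustment, and 0 without any 1 mouse. The narrower adjustment passes every gene at an unadjusted p under 0.05 whatever the data, so 77 and 124 are only the numbers of such genes. The log2 change of Trem1 ranged from −0.081 to 0.573, Vegfa from −0.213 to 0.129, Arc from −0.587 to 0.270 (0.010 without day 3 replicate 3) and Cotl1 from −0.003 to 0.075 when a mouse was left out, and with centred samples Cotl1 was −0.099 and probe 258 −0.087; none of these was called on the main setting, Arc was called without day 7 replicate 3 (adjusted p = 0.0413), and the cause was not tested. All 86 called genes named by the rule kept their sign in every setting in which they were tested. With the methods' t-test 0 of the 86 stayed called, and with centred samples 70 did. The days did not overlap for 97.8% of all higher and 98% of all lower calls, so leaving out a mouse could hardly reverse a sign. With the replicate number as a block, 161 genes differed (119 higher, 42 lower) and the CR2-Crry difference was 0. Same-numbered samples of the 2 days had correlated deviations of 0.045, 0.165 and 0.221, so the numbers were not taken to pair the mice, although each sample correlated best with its own number. The 2 planned edgeR fits were not run; limma voom, chosen after seeing the data, gave 145 higher and 52 lower. Of 5 T cell markers 4 had a mean under 20 on day 3, where few molecules were counted.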

Other observations

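Genes of the nucleus and of translation changed little between day 3 and day 7. Of 53 chromatin regulators 11 rose (20.8%, beside 18.5% of all probes) and 1, the histone acetyltransferase Hat1, fell (−0.23, adjusted p = 0.00313), but their median log2 change of 0.10 lay beside the 0.09 of all probes and none was called higher with centred samples. The count of higher members was 4 without day 3 replicate 1, 6 without day 3 replicate 2 and 2 without day 7 replicate 2. Of 36 DNA repair genes 2 rose (5.56%, beside 18.5% of all probes), the histone variant H2ax (0.71) and the damage-binding protein Ddb2 (0.28), and 1 fell, the DNA ligase Lig1 (−0.24, all log2 changes). Ddb2 was called only without day 7 replicate 3 when a mouse was left out (adjusted p 0.0615 to 0.195 in the others) and not with centred samples (0.262), and Lig1 only without day 3 replicate 3 or day 7 replicate 2 (0.0586 to 0.119 in the others). With centred samples 1 DNA repair gene was called higher and 5 lower. Of 9 ribosomal protein genes 1 fell, Rps2 (−0.19, adjusted p = 0.00522), and with centred samples 7 were called lower. None of 8 hypoxia and glycolysis genes passed (3 were called lower with centred samples) and none of 8 B cell genes did, and of 9 p53 targets 1 rose (Ddb2) and 1 fell (Tnfrsf10b, −0.58; called only without day 7 replicate 1 when a mouse was left out, adjusted p 0.0711 to 0.138 in the others).

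Ttr, a carrier protein made by the choroid plexus, measured 2049, 1120.4 and 1601 on day 3 and 1056, 308 and 1547 on day 7, against 2406, 3162 and 2152 in sham, and did not pass (log2 change −0.96, SE 0.36, adjusted p = 0.064; called lower with centred samples, adjusted p = 0.0322). Lcn2 measured 34.6, 168 and 2687 in sham, where replicate 3 lay in the range of the injured mice. Probes without a symbol in the probe table held 11 of the 137 higher and 3 of the 49 lower calls. Probe 148 rose by 1.97 (adjusted p = 5.59e-06) and probe 76 by 1.81 (adjusted p = 0.00174), and probe 610 fell by 1.61 on the log2 scale (adjusted p = 1.14e-05).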
